A study of Mus musculus with 4 samples.

Results

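Lymphatic endothelial nuclei are described here as they appear in single-nucleus RNA libraries of intact mouse back skin. A nucleus was counted as lymphatic if it held at least 1 UMI (unique molecular identifier, 1 counted RNA molecule) of at least 2 of 5 genes, Prox1, Reln, Mmrn1, Flt4 and Lyve1. It also had to hold fewer than 3 of the macrophage genes Mrc1, F13a1, Adgre1, Csf1r and Cd163, since some skin macrophages carry Lyve1. The rule was applied to nuclei in which 200 or more genes were detected and mitochondrial UMIs did not exceed 5%. It found 146 nuclei in unwounded replicate 1 and 79 in unwounded replicate 2, which is 225 of the 16733 kept nuclei of intact skin and of the 23448 kept in all 4 libraries. The nuclei were thus chosen by the measured counts of these genes, so their levels are given once, as a description.

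The groups of nuclei compared are lymphatic nuclei, blood endothelial nuclei, all other kept nuclei of intact skin, and barcodes of wounds that pass the lymphatic rule. The libraries came from 2 mice with full-thickness skin wounds taken 1 day after wounding and from 2 unwounded mice, with 1 library per mouse. All 4 mice were wild-type C57BL/6 animals aged 8 weeks, and none carried an engineered allele according to the labels. The tissue was labelled as mixed skin cells, so the cell type rests on the RNA alone. Nuclei were freed by grinding whole skin, and RNA of broken cells can then enter the droplets.

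Lymphatic vessels drain fluid, lipid and immune cells from the dermis. Their endothelium arises largely from veins under the transcription factor Prox1, grows in response to Vegfc acting on the receptor encoded by Flt4, and is split into blind-ended capillaries with loose junctions and collecting vessels with valves. Reln encodes the secreted protein reelin and Mmrn1 encodes multimerin 1, both made by lymphatic endothelium, while Lyve1 encodes a hyaluronan receptor found mainly in capillaries.

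Among lymphatic nuclei of unwounded replicate 1, 71 held Prox1, 117 Reln, 85 Mmrn1, 112 Flt4 and 24 Lyve1. In unwounded replicate 2 the numbers were 36, 59, 46, 59 and 7 in the same order of genes. In replicate 1, 73 nuclei held exactly 2 of the 5 genes, 38 held 3, 26 held 4 and 9 held all 5. In replicate 2, 38 held 2, 33 held 3, 8 held 4 and 0 held all 5. Just outside the limit lay the 354 and 309 nuclei with exactly 1 gene that met the macrophage limit. The macrophage limit itself removed 3 and 2 nuclei that held at least 2 of the 5 genes.

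The lymphatic share of kept nuclei was 2.10% in unwounded replicate 1 (95% Wilson interval 1.79 to 2.46) and 0.809% in unwounded replicate 2 (0.649 to 1.01). The intervals cover counting error only, and the rule favours nuclei with more RNA. The median UMI count per lymphatic nucleus was 1074.5 and 909, against 903 and 469 in all other kept nuclei. With at least 3 of the 5 genes required, the shares were 1.05% and 0.420%. No barcode was shared between the lymphatic nuclei of the 2 libraries, although 29 barcodes were shared among all kept nuclei of these libraries. The summed lymphatic nuclei held 221829 UMIs in replicate 1 and 97374 UMIs in replicate 2. Between these sums the chi-square per gene was 1.95 over 3268 genes, so they differed by more than the counting noise of independent UMIs. UMIs are grouped within nuclei, so this value cannot separate a difference between mice from the draw of nuclei.

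The lymphatic label was checked with markers that the rule did not use. Pkhd1l1, which encodes a large transmembrane protein of the fibrocystin family, stood at 198 and 318 CPM (the UMIs of a gene scaled to a total of 1000000 UMIs in the summed nuclei) in lymphatic nuclei, against 8.66 and 9.13 CPM in all other nuclei. Klhl4 stood at 243 and 318 CPM in lymphatic nuclei, against 8.90 and 7.24 CPM in all other nuclei. It was also among the genes named for the highest ratios to all other nuclei, so its excess here is not a separate check. Pdpn, which encodes podoplanin, was at 117 and 164 CPM in lymphatic nuclei, 0 CPM in both sums of blood endothelial nuclei, and 64.4 and 38.7 CPM in all other nuclei. The Ccl21 chemokine, which draws dendritic cells into lymphatics, is encoded by near-identical gene copies that share reads, so the 6 gene entries were summed. They gave 140 and 61.6 CPM in lymphatic nuclei, from 31 and 6 UMIs, 0 CPM in both blood endothelial sums, and 5.15 and 3.48 CPM in all other nuclei. All 4 of these measures were higher in lymphatic nuclei than in other nuclei in both libraries. Stab2, also a lymphatic marker, was at 0 and 10.3 CPM in lymphatic nuclei, from at most 1 UMI per library.

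General endothelial genes were present but thin. At least 2 of the 8 genes Pecam1, Cdh5, Erg, Tie1, Ptprb, Egfl7, Mecom and Sox18 were found in 34.2% and 21.5% of lymphatic nuclei, against 83.3% and 81.8% of blood endothelial nuclei and 1.75% and 1.58% of all other nuclei. The summed level of the 8 genes was 1118 and 1130 CPM in lymphatic nuclei, 5511 and 6346 CPM in blood endothelial nuclei, and 155 and 234 CPM in all other nuclei. Mecom made up much of the blood endothelial sum, at 2867 and 3429 CPM.

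Transcripts of other skin cells were also counted in lymphatic nuclei. At least 3 of 8 fibroblast genes were found in 62.3% and 60.8% of lymphatic nuclei, 73.3% and 63.6% of blood endothelial nuclei, and 79.5% and 63.5% of all other nuclei. Keratinocyte nuclei, which should lack these genes, held at least 3 of them in 48.4% and 41.5% of cases, at median depths of 1147 and 666 UMIs. The 8 fibroblast genes summed to 7078 and 7661 CPM in lymphatic nuclei, against 11045 and 11415 CPM in all other nuclei. The 8 macrophage genes summed to 460 and 596 CPM in lymphatic nuclei, 261 and 149 CPM in blood endothelial nuclei, and 318 and 309 CPM in all other nuclei. This list holds Maf, which lymphatic endothelium also expresses and which stood at 374 and 493 CPM in lymphatic nuclei; 4 of its 8 genes were at 0 in replicate 1 and 5 in replicate 2, with Lyz2, Fcgr1 and Cx3cr1 at 0 in both. The smooth muscle and pericyte list summed to 167 and 144 CPM in lymphatic nuclei, against 389 and 372 CPM in all other nuclei, with Acta2, Myh11 and Rgs5 at 0 in both lymphatic sums. The adipocyte list summed to 81.1 and 113 CPM in lymphatic nuclei, against 203 and 187 CPM in all other nuclei, and the Schwann cell list to 126 and 144 CPM in lymphatic nuclei, against 179 and 186 CPM in all other nuclei. Several of the genes at 0 were also at 0 in blood endothelial sums. The part of RNA from other cells in the results was not tested. Of the 8 T cell genes, all were at 0 in replicate 2, and the list summed to 18.0 CPM in replicate 1. The 8 keratinocyte genes summed to 144 and 298 CPM in lymphatic nuclei, against 470 and 768 CPM in all other nuclei.

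**Figure D1:**
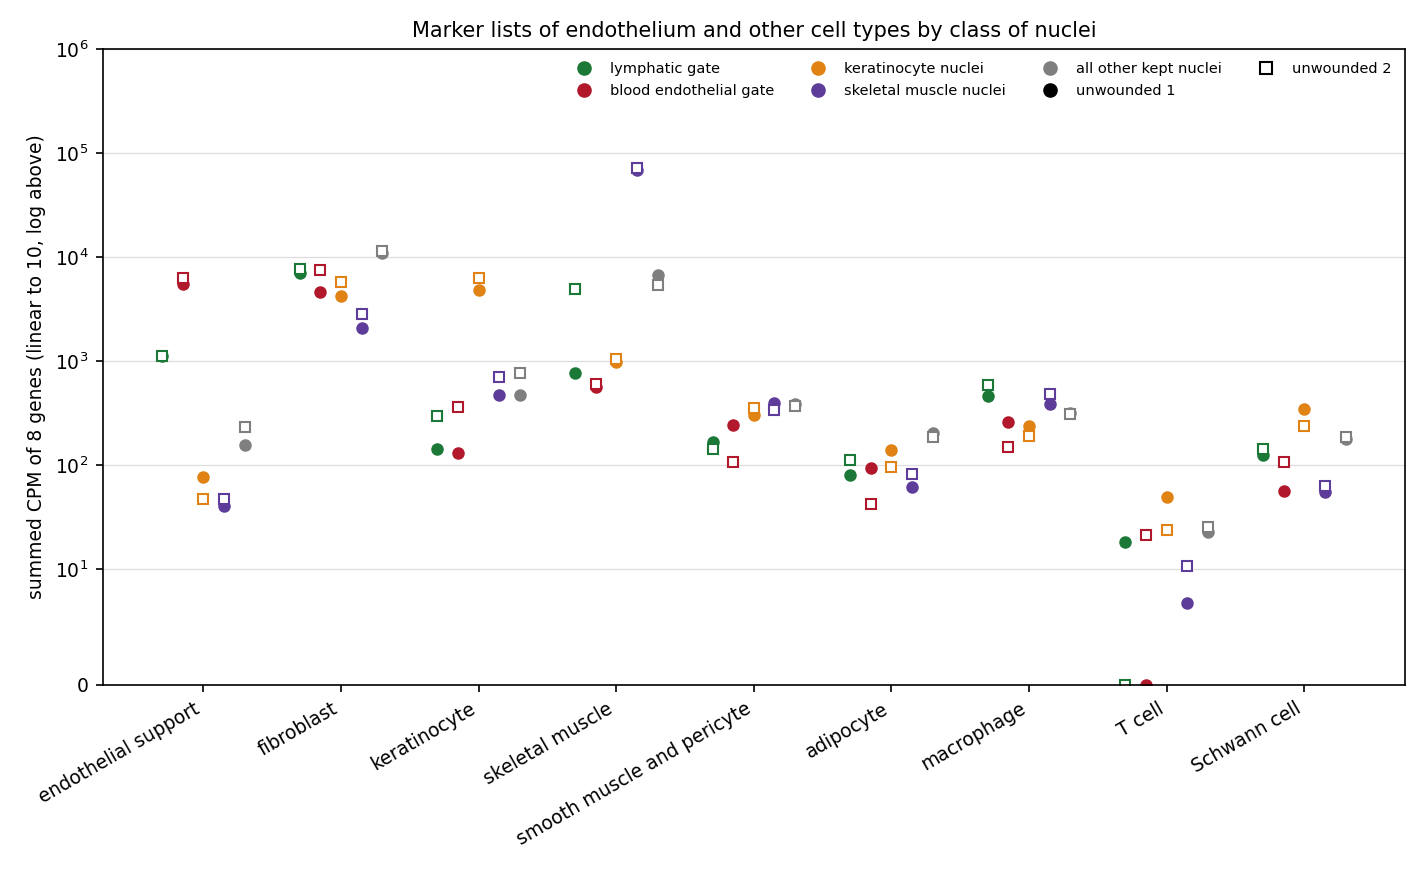
Summed level (CPM, linear to 10 and logarithmic above) of 9 lists of 8 marker genes in 5 classes of nuclei; filled circles are unwounded replicate 1 and open squares unwounded replicate 2. In the general endothelial list, lymphatic nuclei (1118 and 1130 CPM) lie between blood endothelial nuclei (5511 and 6346) and all other nuclei (155 and 234), a class that includes the other 3.

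Skeletal muscle RNA set the lymphatic sums of the 2 mice apart. The 8 muscle genes summed to 775 CPM in replicate 1 and 4950 CPM in replicate 2. In replicate 2, a single barcode that passed the rule held 424 of the 482 muscle UMIs, or 88.0%. In replicate 1 the most in any nucleus was 4 of 172 UMIs. Ttn, the muscle protein titin, thus reached 338 and 3266 CPM in lymphatic nuclei, against 279 and 192 CPM in blood endothelial nuclei, and passed the edgeR test (log2 fold change 2.85 ± 0.79, SE; adjusted p = 0.0227). Without nuclei holding 3 muscle genes, an alternative added after the data were seen, its edgeR log2 fold change was 0.20 with an adjusted p of 0.834. The log2 ratio was 4.02 without replicate 1 and 0.24 without replicate 2.

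Lymphatic nuclei were set against blood endothelial nuclei of the same mice to show what separates the 2 kinds of endothelium. Blood endothelial nuclei held at least 2 of Flt1, Emcn, Plvap, Vwf and Selp, met the same macrophage limit and were outside the lymphatic group. There were 30 in replicate 1 and 33 in replicate 2, with 53714 and 46958 UMIs, and 2 nuclei in each library met both gene rules and stayed in the lymphatic group. UMIs were summed per library and kind, giving 4 sums, and tested by quasi-likelihood in edgeR, with p-values adjusted by Benjamini-Hochberg and a threshold of 0.05. Of 1764 genes that passed the filter on low counts and were in no gate, 108 were higher in lymphatic nuclei, or 6.12%, and 150 were lower, or 8.50%. The median log2 fold change over the 1764 genes was 0.02. With only 2 mice, the p-values rest on the spread between the 2 sums of each kind, with information shared across genes. This spread also holds the draw of nuclei, and the main fit did not pair the sums of a mouse. In each mouse alone, with no test, all 52 named genes past the threshold kept their direction, and the fold moved by over 1.5 times in 25 of them without replicate 1 and in 17 without replicate 2. The 52 genes had passed the test on these same 2 mice, so the shared direction is not a separate check. DESeq2, which tested 2888 genes, called 43 higher (1.49%) and 61 lower (2.11%), of which 41 and 58 were also called by edgeR.

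**Figure D2:**
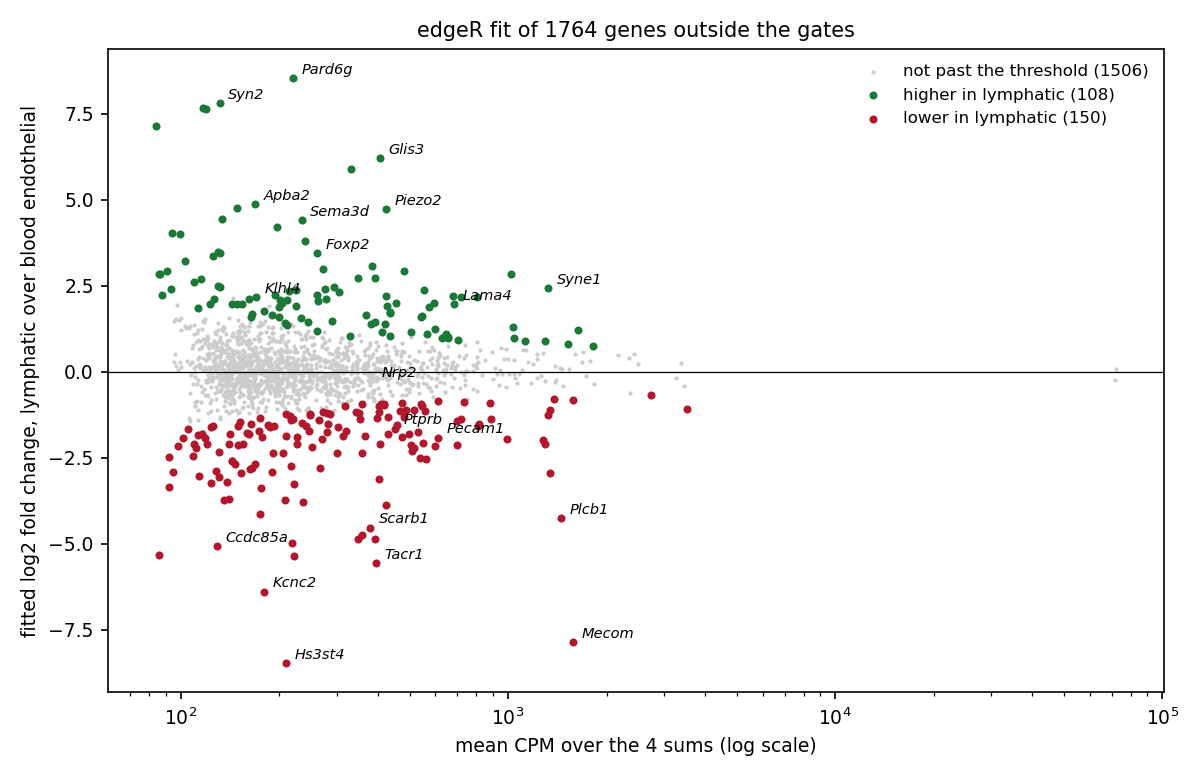
Fitted edgeR log2 fold change of lymphatic over blood endothelial nuclei (vertical) against the mean level of the 4 sums (CPM, log scale) for 1764 genes outside the gates. The 108 green genes were higher and the 150 red genes lower in lymphatic nuclei; fitted values of genes at 0 in 1 kind of nuclei depend on the prior count.

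A group of genes was high in lymphatic nuclei and at or near 0 in blood endothelial nuclei. Pard6g, a member of the Par6 family of cell polarity proteins, was at 419 and 462 CPM in lymphatic nuclei and at 0 CPM in both blood endothelial sums. Set against 3 UMIs in the summed blood endothelial nuclei, it was at least 14.5-fold higher, a bound that allows for counting error only. On the same basis, Syn2, a synapsin of synaptic vesicles in neurons, was at least 8.94-fold higher, Tc2n at least 8.20-fold and Sh3gl3, an endophilin of membrane traffic, at least 7.78-fold higher. All 4 genes were at 0 in both blood endothelial sums and above 200 CPM in both lymphatic sums.

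Piezo2, which encodes a force-gated cation channel best known from touch neurons and Merkel cells, was at 848 and 791 CPM in lymphatic nuclei. It was at 37.2 and 21.3 CPM in blood endothelial nuclei, from 3 UMIs in all, and at 22.6 and 23.6 CPM in all other nuclei. The sums of the 2 kinds of endothelial nuclei did not overlap in this gene, which was chosen for its large difference in them. The ratio of pooled levels was 27.9 (exact 95% interval 9.43 to 136, counting error only). By edgeR its log2 fold change was 4.72 ± 0.46 (SE), with an adjusted p of 4.46e-06. Gpm6a (chr8:54954843-55060871 on GRCm38, plus strand), a membrane glycoprotein of neurons that is also known from lymphatic endothelium, was at 694 and 606 CPM in lymphatic nuclei, against 0 and 21.3 CPM in blood endothelial nuclei and 16.7 and 18.0 CPM in all other nuclei. Glis3 (chr19:28258851-28680077, minus strand), a zinc finger transcription factor, was at 969 and 637 CPM in lymphatic nuclei, against 0 and 21.3 CPM in blood endothelial nuclei. The 2 pooled ratios rest on 1 blood endothelial UMI each, at 67.2 (11.9 to 2666) for Gpm6a and 87.4 (15.6 to 3463) for Glis3. Their intervals also cover counting error only.

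Scn3a, a voltage-gated sodium channel, was at 338 and 236 CPM in lymphatic nuclei, against 18.6 and 0 CPM in blood endothelial nuclei. Cacna1e, a voltage-gated calcium channel, was at 194 and 164 CPM in lymphatic nuclei, against 18.6 and 0 CPM in blood endothelial nuclei. Apba2 (chr7:64501706-64753878, plus strand), an adaptor that binds the amyloid precursor protein, was at 329 CPM in both lymphatic sums, against 18.6 and 0 CPM in blood endothelial nuclei. In each of these 3 genes the blood endothelial value comes from 1 UMI. By edgeR the log2 fold changes were 4.74 ± 0.80 (adjusted p = 0.000586) for Scn3a, 4.04 ± 0.86 (adjusted p = 0.00376) for Cacna1e and 4.88 ± 0.74 (adjusted p = 0.000272) for Apba2. By DESeq2, Scn3a (adjusted p = 0.0565) and Cacna1e (adjusted p = 0.217) missed the threshold.

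Syne1, which encodes nesprin 1, a protein that links the nuclear envelope to the cytoskeleton, was at 2304 and 2177 CPM in lymphatic nuclei. It was at 503 and 319 CPM in blood endothelial nuclei and at 211 and 185 CPM in all other nuclei. The edgeR log2 fold change against blood endothelial nuclei was 2.42 ± 0.28 (SE; adjusted p = 2.38e-05). Syne1 was named after its values were seen.

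**Figure D3:**
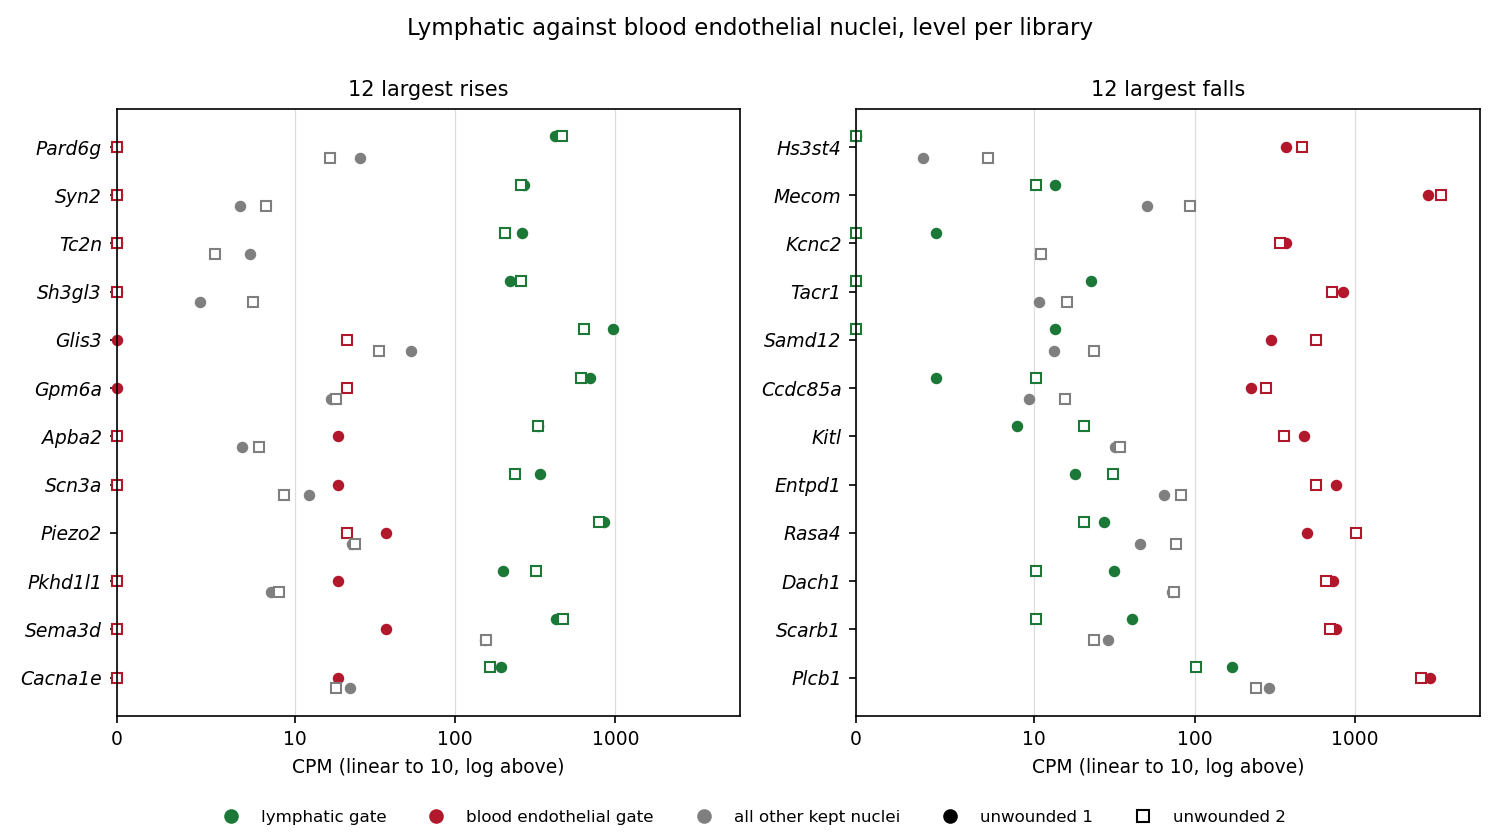
Level (CPM, linear to 10 and logarithmic above) of the 12 genes that rose most and the 12 that fell most, in lymphatic, blood endothelial and all other kept nuclei; filled circles are unwounded replicate 1 and open squares unwounded replicate 2. In all 24 genes both lymphatic sums lie on the same side of both blood endothelial sums. The genes were chosen for large differences in these same sums, so this is not a separate check.

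Among genes of lymphatic identity outside the rule, those that passed the test were all higher in lymphatic nuclei. Of 26 genes listed, 24 were detected in lymphatic nuclei and 13 passed the filter on low counts. By edgeR 7 of these 13 were higher in lymphatic nuclei and 0 were lower, against 6.12% and 8.50% of all tested genes. Their median log2 fold change was 1.33, against 0.02 over all tested genes. The list was drawn up as known markers with earlier results of these data in view, and the filter favours genes that one group has in quantity. The 7 genes were Sema3d, Pkhd1l1, Maf, Klhl4, Abi3bp, Tspan18 and Sned1. By DESeq2, 5 of the 7 missed the threshold, with adjusted p of 0.0797 for Pkhd1l1, 0.161 for Tspan18, 0.206 for Klhl4, 0.238 for Maf and 0.265 for Sned1. Sned1 also missed it in edgeR with 3 lymphatic genes required (adjusted p = 0.0572) and at 400 genes per nucleus (adjusted p = 0.0616).

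Sema3d, a secreted semaphorin, was at 428 and 472 CPM in lymphatic nuclei, 37.2 and 0 CPM in blood endothelial nuclei, and 153 and 156 CPM in all other nuclei. Maf, a transcription factor shared by lymphatic endothelium and macrophages, was at 374 and 493 CPM in lymphatic nuclei and 168 and 128 CPM in blood endothelial nuclei. Its edgeR log2 fold change was 1.48 ± 0.38 (adjusted p = 0.0125), and with all sums thinned to the size of the smallest it was 0.80 (edgeR adjusted p = 0.286). Abi3bp, a matrix protein, was at 1014 and 893 CPM in lymphatic nuclei, against 242 and 234 CPM in blood endothelial nuclei and 540 and 448 CPM in all other nuclei. The lymphatic and blood endothelial sums did not overlap in any of these 3 genes. All 3 had passed the test on these same sums, so this is not a separate check.

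Other lymphatic markers did not pass the test or were too low for it. Nrp2, a co-receptor of Vegfc on lymphatics and veins, was at 356 and 349 CPM in lymphatic nuclei and 503 and 341 CPM in blood endothelial nuclei, with an edgeR log2 fold change of -0.28 ± 0.30 (adjusted p = 0.657). Nr2f2, the venous and lymphatic transcription factor COUP-TFII, was at 171 and 154 CPM in lymphatic nuclei and 93.1 and 128 CPM in blood endothelial nuclei (edgeR adjusted p = 0.525). Both exceeded their levels in all other nuclei, which were 141 and 135 CPM for Nrp2 and 9.95 and 12.9 CPM for Nr2f2. Tbx1, a transcription factor needed for lymphatic growth in mice, was under the filter at 63.1 and 123 CPM in lymphatic nuclei, against 18.6 and 21.3 CPM in blood endothelial nuclei.

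Of 19 genes of Vegfc and angiopoietin signalling, 10 were tested, 1 was higher and 4 were lower in lymphatic nuclei by edgeR, against 6.12% and 8.50% of all tested genes. Svep1, a large matrix protein needed for lymphatic remodelling in mice and zebrafish, was at 185 and 195 CPM in lymphatic nuclei, against 37.2 and 21.3 CPM in blood endothelial nuclei. All other nuclei held 246 and 174 CPM. Tek, the angiopoietin receptor Tie2, was at 108 and 216 CPM in lymphatic nuclei, against 484 and 405 CPM in blood endothelial nuclei. Ptprb, a phosphatase that restrains Tek, was at 221 and 216 CPM in lymphatic nuclei, against 652 and 724 CPM in blood endothelial nuclei. Nrp1, a semaphorin and Vegf co-receptor, was lower too, its log2 fold change being -1.55 ± 0.44. With sums thinned to the smallest, Tek had an edgeR log2 fold change of -0.98 and an adjusted p of 0.117, and without replicate 1 its log2 ratio was -0.91. By DESeq2, Svep1 and Tek both had an adjusted p of 0.307, and Nrp1 one of 0.483. Nrp1 also lost its edgeR call with no filter (adjusted p = 0.148) and with support genes (adjusted p = 0.0811), and Ptprb without nuclei holding 3 genes of another cell type (edgeR adjusted p = 0.102). Angpt2, a Tek ligand, was under the filter at 81.1 and 82.2 CPM in lymphatic nuclei, against 18.6 and 0 CPM in blood endothelial nuclei and 3.86 and 2.46 CPM in all other nuclei.

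Of 18 genes tied to lymphatic valves and collecting vessels, 6 were tested and 2 were higher by edgeR, against 6.12% of all tested genes. Each of the 2 calls was lost under an alternative. Itga9, the integrin chain that binds fibronectin during valve formation, was at 261 and 318 CPM in lymphatic nuclei, against 74.5 and 106 CPM in blood endothelial nuclei (log2 fold change 1.64 ± 0.46, edgeR adjusted p = 0.0228), and by DESeq2 its adjusted p was 0.388. Foxp2, a forkhead transcription factor known from collecting vessels and valves, was at 311 and 657 CPM in lymphatic nuclei, against 55.9 and 21.3 CPM in blood endothelial nuclei and 53.6 and 47.7 CPM in all other nuclei. Its edgeR log2 fold change was 3.46 ± 0.65 (adjusted p = 0.00148). With at least 3 of the 5 lymphatic genes required, it was 1.71 and the edgeR adjusted p was 0.111. The log2 ratio was 4.37 without replicate 1 and 2.27 without replicate 2. Nfatc1, Piezo1, Cnksr3 and Foxo1 did not pass. Foxc2, the master factor of valves, was at 4.51 and 0 CPM in lymphatic nuclei, from 1 UMI.

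Genes of leukocyte and lymph traffic were mostly too low to test, with 2 of 21 past the filter. Cd200, which damps myeloid cells, was lower, at 49.6 and 51.3 CPM in lymphatic nuclei against 149 and 170 CPM in blood endothelial nuclei (edgeR adjusted p = 0.0403). Its call was lost with no filter (edgeR adjusted p = 0.420) and by DESeq2 (adjusted p = 0.829). Il7, the lymphocyte survival cytokine, was at 117 and 134 CPM in lymphatic nuclei, 18.6 and 0 CPM in blood endothelial nuclei, and 6.09 and 5.07 CPM in all other nuclei. Ackr2, the chemokine scavenger of lymphatic endothelium, was at 85.7 and 30.8 CPM in lymphatic nuclei, 0 CPM in both blood endothelial sums, and 3.28 and 1.45 CPM in all other nuclei. Ackr4 was at 4.51 and 0 CPM in lymphatic nuclei, against 18.6 and 0 CPM in blood endothelial nuclei. Each kind held 1 UMI in all, so no direction can be read between them. In both libraries Ackr4 was lower in lymphatic nuclei than in all other nuclei, on the same 1 lymphatic UMI. Il7, Ackr2 and Ackr4 were under the filter and were not tested.

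Most tested genes of endothelium in general were lower in lymphatic nuclei. Of 24 genes, 16 were tested, 0 were higher and 11 were lower in lymphatic nuclei by edgeR, with a median log2 fold change of -1.24. Over all tested genes 6.12% were higher and 8.50% lower. Blood endothelial nuclei were chosen with Flt1, Emcn, Plvap, Vwf and Selp, none of which is in this list. Pecam1, the adhesion molecule CD31, was at 270 and 236 CPM in lymphatic nuclei, 838 and 1107 CPM in blood endothelial nuclei, and 30.7 and 39.0 CPM in all other nuclei. Fli1, an ETS factor, was at 397 and 359 CPM in lymphatic nuclei, against 931 and 1107 CPM in blood endothelial nuclei. Shank3, Erg, Eng, Egfl7, Adgrl4 and Nos3 also fell, with log2 fold changes between -1.14 and -2.20. Fli1 lost its edgeR call with support genes (adjusted p = 0.0538), as did Adgrl4 (adjusted p = 0.0821). Adgrl4 also lost it with 3 lymphatic genes (edgeR adjusted p = 0.0672) and by DESeq2 (adjusted p = 0.0595). Cdh5, the junctional cadherin of all endothelium, was at 153 and 205 CPM in lymphatic nuclei and 223 and 319 CPM in blood endothelial nuclei, and did not pass (edgeR adjusted p = 0.336). Fewer endothelial transcripts per nucleus and an admixture of nuclei that are not endothelial cannot be told apart in these sums.

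Mecom (chr3:29951296-30548008, minus strand) was the most extreme of the falls with at least 1 UMI in lymphatic nuclei. It encodes a zinc finger transcription factor of arterial endothelium and blood stem cells. It was at 13.5 and 10.3 CPM in lymphatic nuclei, from 4 UMIs, against 2867 and 3429 CPM in blood endothelial nuclei and 50.3 and 93.5 CPM in all other nuclei. The edgeR log2 fold change was -7.85 ± 0.38 (adjusted p = 2.57e-09). Hs3st4, a heparan sulfate sulfotransferase, was at 0 CPM in both lymphatic sums, against 372 and 469 CPM in blood endothelial nuclei, and was at least 44.4-fold lower. Plcb1, a phospholipase C of G protein signalling, was at 171 and 103 CPM in lymphatic nuclei, against 2942 and 2598 CPM in blood endothelial nuclei, with an edgeR log2 fold change of -4.25 ± 0.29.

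Scarb1, the receptor for high-density lipoprotein, was at 40.6 and 10.3 CPM in lymphatic nuclei, against 763 and 703 CPM in blood endothelial nuclei. Kitl, the ligand of the Kit receptor, was at 9.02 and 20.5 CPM in lymphatic nuclei, against 484 and 362 CPM in blood endothelial nuclei. Entpd1, the ATP-degrading enzyme CD39, was at 18.0 and 30.8 CPM in lymphatic nuclei, against 763 and 575 CPM in blood endothelial nuclei. Tacr1, the substance P receptor, was at 22.5 and 0 CPM in lymphatic nuclei, against 838 and 724 CPM in blood endothelial nuclei. Kcnc2, a voltage-gated potassium channel, Dach1, a transcription factor, and Samd12, Ccdc85a and Rasa4 completed the 12 largest falls. All 12 had higher levels in both blood endothelial sums than in both lymphatic sums, but they were chosen for large falls in these same sums.

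Of 25 blood endothelial genes outside the gates, 7 were tested, 1 was higher and 5 were lower in lymphatic nuclei by edgeR, against 6.12% and 8.50% of all tested genes. Cd36, a fatty acid receptor of capillaries, was at 45.1 and 30.8 CPM in lymphatic nuclei, against 298 and 511 CPM in blood endothelial nuclei. Aqp1, a water channel, was at 4.51 and 0 CPM in lymphatic nuclei, against 168 and 170 CPM in blood endothelial nuclei. Cyyr1, Jam2 and Nrp1 also fell. Tmtc1 went the other way, with 609 and 503 CPM in lymphatic nuclei against 186 and 170 CPM in blood endothelial nuclei (log2 fold change 1.64 ± 0.33, edgeR adjusted p = 0.00231), and by DESeq2 its adjusted p was 0.0794.

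In the basement membrane and matrix list, 11 of 20 genes were tested, 2 were higher and 1 was lower by edgeR, against 6.12% and 8.50% of all tested genes. Lama4, the laminin chain of vessel walls, was at 1141 and 1037 CPM in lymphatic nuclei, 279 and 277 CPM in blood endothelial nuclei, and 239 and 228 CPM in all other nuclei (log2 fold change 1.96 ± 0.29, edgeR adjusted p = 0.000209). Fn1, fibronectin, was at 144 CPM in both lymphatic sums, against 18.6 and 42.6 CPM in blood endothelial nuclei and 150 and 185 CPM in all other nuclei. Hspg2, the heparan sulfate proteoglycan perlecan, was lower, at 67.6 and 113 CPM in lymphatic nuclei against 242 and 234 CPM in blood endothelial nuclei (edgeR adjusted p = 0.0337). With the library as a replicate block its adjusted p by edgeR was 0.0510. Both Fn1 and Hspg2 lost the call with no filter (edgeR adjusted p = 0.0648 and 0.298) and by DESeq2 (adjusted p = 0.629 and 0.738).

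In the junction list, 12 of 20 genes were tested, 0 were higher and 3 were lower by edgeR, against 6.12% and 8.50% of all tested genes. These were Pecam1, Jam2 and the atypical cadherin Cdh13, which was at 1235 and 1068 CPM in lymphatic nuclei and 2253 and 1768 CPM in blood endothelial nuclei. Cdh13 lost its call under 5 alternatives: edgeR with no filter (adjusted p = 0.319), with 3 lymphatic genes (0.151), with support genes (0.136) and with thinned sums (0.0542), and DESeq2 (0.173). Magi1, a scaffold of endothelial junctions, was at 2092 and 1653 CPM in lymphatic nuclei, 3053 and 2641 CPM in blood endothelial nuclei and 255 and 243 CPM in all other nuclei. Its log2 fold change of -0.61 ± 0.23 had an edgeR adjusted p of 0.0956, and of 0.0246 with the library as a replicate block.

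Of 24 axon guidance genes 13 were tested, 2 were higher (Sema3d and Ntn1), 2 were lower (Plxna2 and Nrp1) and 9 did not pass by edgeR, against 6.12% higher and 8.50% lower of all tested genes. Plxna2 lost its call with no filter (edgeR adjusted p = 0.192) and by DESeq2 (adjusted p = 0.658). Ntn1, which encodes netrin 1, was at 672 and 668 CPM in lymphatic nuclei, against 149 and 256 CPM in blood endothelial nuclei and 190 and 161 CPM in all other nuclei. Sema6a, a membrane-bound semaphorin, was at 1195 and 883 CPM in lymphatic nuclei and 689 and 447 CPM in blood endothelial nuclei. Its edgeR adjusted p was 0.0605, and 0.0180 with the library as a replicate block. In the Notch list, 3 of 15 genes were tested and 0 passed, and in the lipid list 4 of 20 were tested and Cd36 and Scarb1 were lower. None of the 5 tested fibroblast genes passed, with a median log2 fold change of 0.28.

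The genes called higher were also set against all other skin nuclei. Of the 108 genes called higher, 64 (59.3%) were also at least 2-fold above all other nuclei in both libraries, and 15 (13.9%) were above them in neither. Of all 1764 tested genes, 221 (12.5%) were at least 2-fold above all other nuclei in both, and 464 (26.3%) were above them in neither. Fn1 was among the 15. Both comparisons use the same lymphatic sums, so the larger share among the genes called higher is not a separate check.

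Against all other nuclei, with no test because the gate defines the contrast, 38 of 1760 genes at 100 CPM or more in both libraries were at least 10-fold higher in lymphatic nuclei. Among the highest ratios were those of Apba2, Tc2n, Gpm6a, Piezo2, Sh3gl3, Brinp1, Syn2, Klhl4 and Stmn2. Brinp1 stood at 122 and 134 CPM in lymphatic nuclei, 0 CPM in both blood endothelial sums, and 1.52 and 4.20 CPM in all other nuclei. Stmn2, a microtubule regulator of growing axons, stood at 108 and 103 CPM in lymphatic nuclei, 18.6 and 21.3 CPM in blood endothelial nuclei, and 2.69 and 3.77 CPM in all other nuclei.

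The share of nuclei with a UMI differed between these genes. Piezo2 had a UMI in 48.6% and 46.8% of lymphatic nuclei. After each nucleus was thinned to 500 UMIs, which left out 3 and 14 shallower lymphatic nuclei, the shares were 34.3% (95% Wilson interval 27.0 to 42.4) and 38.5% (27.6 to 50.6). In thinned keratinocyte nuclei, which should lack the gene, they were 0.926% and 1.20%. Gpm6a had a UMI in 29.4% and 24.6% of thinned lymphatic nuclei, against 1.39% and 0.599% of thinned keratinocyte nuclei. Glis3 had a UMI in 38.5% and 18.5% of thinned lymphatic nuclei, against 2.31% and 0.599% of thinned keratinocyte nuclei. For Sema3d the 2 kinds of nuclei were close, with 18.9% and 21.5% of thinned lymphatic nuclei against 16.2% and 17.4% of thinned keratinocyte nuclei. Stmn2 had a UMI in 4.90% and 3.08% and Brinp1 in 4.90% and 6.15% of thinned lymphatic nuclei. Before thinning, Stmn2 had a UMI in 17 of 146 and 6 of 79 lymphatic nuclei, and Brinp1 in 19 of 146 and 10 of 79.

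Levels were also read by the number of gate genes a nucleus held. Piezo2 was at 16.8 and 20.5 CPM in nuclei with 0 of the 5 genes, 122 and 109 CPM with 1, 681 and 918 CPM with 2, and 984 and 723 CPM with 3 or more, in replicates 1 and 2. Syne1 was at 192 and 177, 557 and 439, 1833 and 1777, and 2689 and 2389 CPM over the same 4 classes. Nuclei with exactly 2 gate genes, the lowest number that the rule admits, thus held both genes far above nuclei with 1. From 2 to 3 or more gate genes the direction varied: Piezo2 and Gpm6a were lower in replicate 2, and Glis3 was lower in both, with 902 and 582 CPM at 3 or more against 1051 and 741 CPM at 2. Among matrix genes, Col1a2 was lower in nuclei with more gate genes, with 2287 and 2861 CPM at 3 or more gate genes, against 4316 and 4508 CPM at 0. Others were higher: Fndc1 stood at 771 and 990 CPM at 3 or more gate genes, against 538 and 650 CPM at 0, and Tnxb at 607 and 739 CPM, against 521 and 594 CPM at 0. Abi3bp stood at 1049 and 990 CPM at 3 or more, against 540 and 451 CPM at 0.

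**Figure D4:**
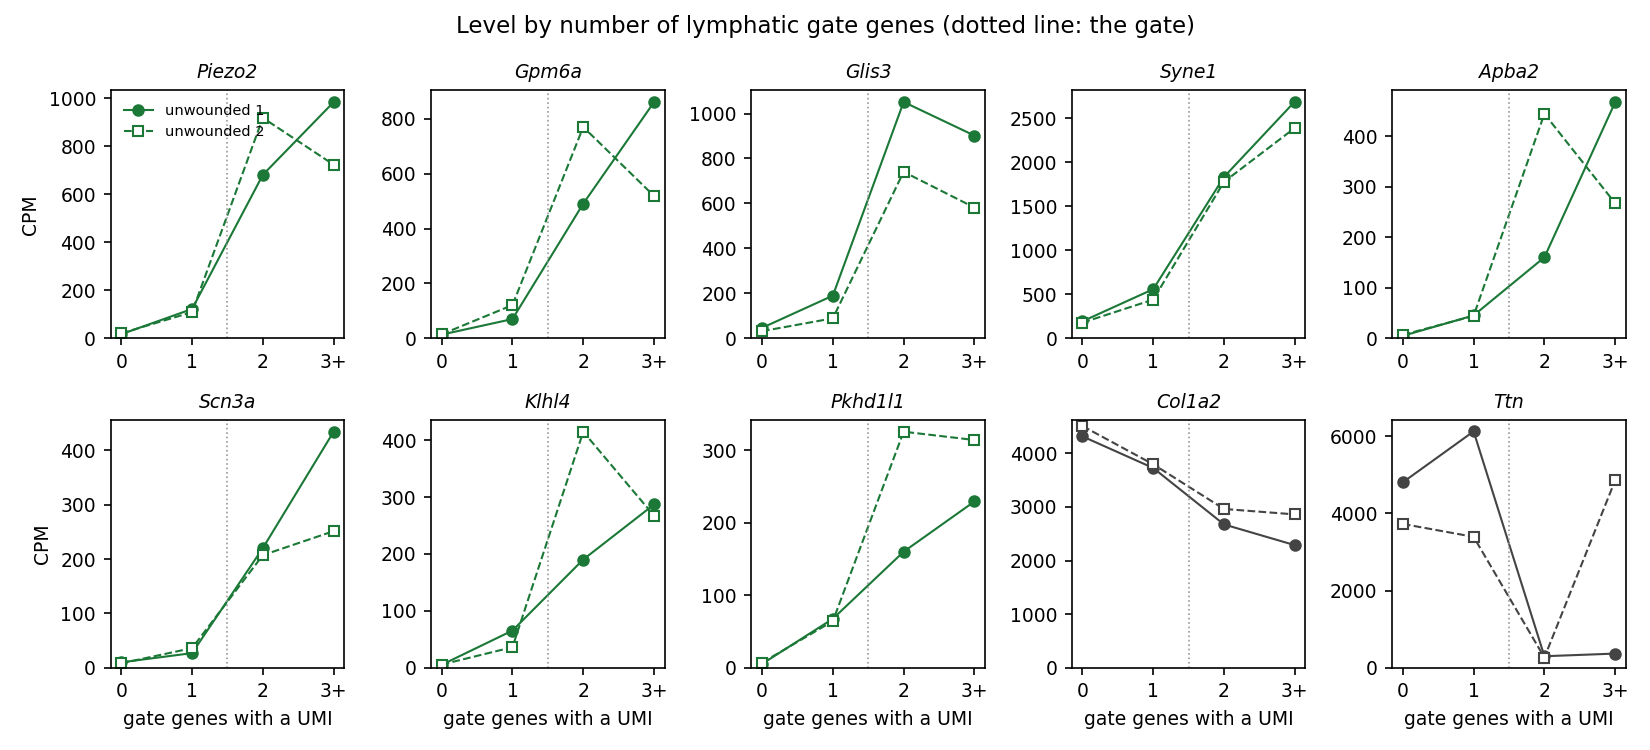
Level (CPM) of 10 genes in intact-skin nuclei holding 0, 1, 2 or at least 3 of the 5 lymphatic gate genes; solid lines with circles are unwounded replicate 1 and dashed lines with squares unwounded replicate 2, and the dotted line marks the limit of the rule. Piezo2 and Syne1 step up at 2 genes, Col1a2 declines, and Ttn does not step up at 2 genes in either library.

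The sequence just before the start of genes that moved in opposite directions was searched for short motifs of factors used in endothelium. The 250 bases before the transcription start, from RefSeq on GRCm38.p6, are shown for Sh3gl3, which was at 0 in blood endothelial nuclei, and for Mecom, which was nearly absent from lymphatic nuclei. Capitals mark matches on either strand to CGGAAG (the ETS core), ACAATG (a SOX site) or AGGTCA (a nuclear receptor half-site).
Sh3gl3, chr7:82174546-82174795, plus strand: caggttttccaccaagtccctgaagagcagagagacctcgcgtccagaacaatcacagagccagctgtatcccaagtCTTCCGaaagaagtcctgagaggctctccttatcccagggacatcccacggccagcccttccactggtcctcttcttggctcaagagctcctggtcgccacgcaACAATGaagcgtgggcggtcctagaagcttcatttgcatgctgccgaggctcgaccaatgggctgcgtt
Mecom, chr3:30013205-30013454, minus strand: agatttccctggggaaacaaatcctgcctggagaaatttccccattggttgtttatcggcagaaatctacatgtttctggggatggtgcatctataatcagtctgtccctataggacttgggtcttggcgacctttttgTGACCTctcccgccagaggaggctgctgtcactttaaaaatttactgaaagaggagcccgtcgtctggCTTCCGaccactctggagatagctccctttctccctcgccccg

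Each of these windows holds 1 ETS core on the opposite strand. Sh3gl3 was the only 1 of the 8 matched genes among the 12 largest rises with any of the motifs, and the other Mecom start listed in RefSeq had none. Over the 122 start sites of the 82 matched genes called higher, 10.7% held the ETS core, 9.02% the SOX site and 11.5% the half-site. Over the 171 start sites of genes called lower the shares were 7.60%, 7.02% and 11.1%. All 32851 promoters held them in 13.6%, 10.7% and 14.0% of cases. A match is a run of letters and not a bound site.

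The same rule was applied to the wounds taken after 1 day, as a description. It took 33 of 2385 kept barcodes (1.38%) in wounded replicate 1 and 28 of 4330 (0.647%) in wounded replicate 2. Only 1 and 0 of these barcodes held at least 3 of the 5 genes, against 73 and 41 lymphatic nuclei of intact skin. The 12 genes of largest rise against blood endothelial nuclei, which were chosen in intact skin, were summed in the wound barcodes. They reached 1271 CPM (exact Poisson 95% interval 989 to 1609) in gated barcodes against 1465 CPM in all other barcodes of wounded replicate 1, and 1689 CPM (1212 to 2291) against 1446 CPM in wounded replicate 2. In intact skin they reached 5171 CPM (4876 to 5479) in lymphatic nuclei against 340 CPM in all other nuclei of unwounded replicate 1, and 4734 CPM (4312 to 5187) against 314 CPM in unwounded replicate 2. All 12 genes were above other nuclei in both unwounded libraries, and 3 of 12 in both wounded libraries.

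Piezo2 stood at 203 and 494 CPM in gated wound barcodes and at 313 CPM in other barcodes of both wounded libraries. Syne1 stood at 497 and 206 CPM in gated wound barcodes and at 376 and 355 CPM in other wound barcodes. Reln, a gate gene, stood at 227 and 224 CPM in the other wound barcodes, against 22.1 and 21.4 CPM in the other nuclei of intact skin. In both wounded libraries the interval of the summed 12 genes in gated barcodes included the level of the other barcodes, and gated wound barcodes were not counted as lymphatic nuclei. The median UMI count of all kept barcodes was 364 and 315 in the wounded libraries, against 906 and 472 in the unwounded ones. In gated barcodes it was 1227 and 585.5 in the wounded libraries, against 1074.5 and 909 in the unwounded ones. The part of depth or free RNA in these levels was not tested.

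**Figure D5:**
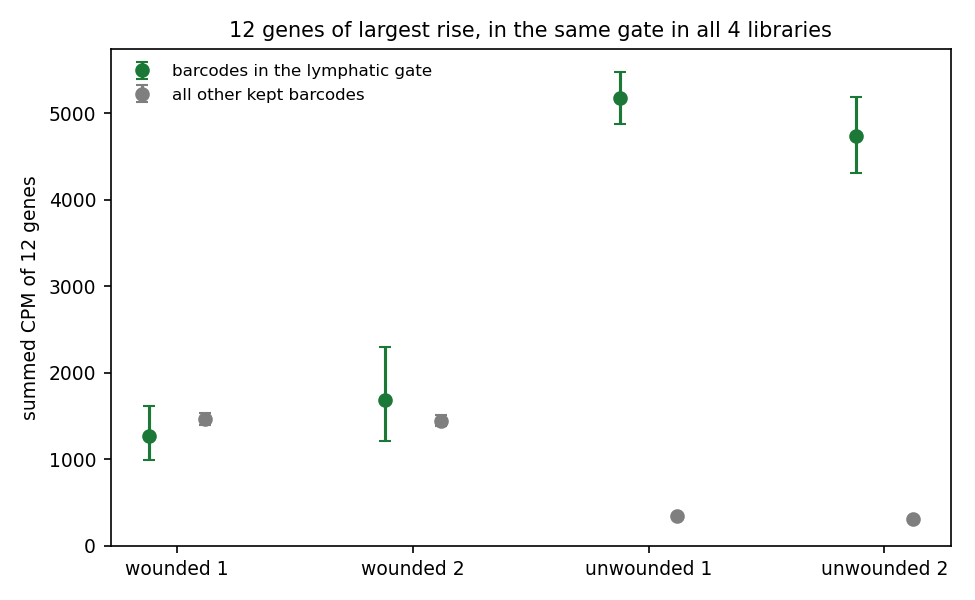
Summed level (CPM) of the 12 genes of largest rise in barcodes that pass the lymphatic rule and in all other kept barcodes, in each of the 4 libraries; bars are exact Poisson 95% intervals and cover counting error only. Gated barcodes stand at 5171 and 4734 CPM in the unwounded libraries and at 1271 and 1689 CPM in the wounded ones.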

How the data were processed

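The authors deposited raw UMI counts per gene and barcode for each library, from 10x Genomics 3' v3.1 libraries per the labels' protocols. Cell Ranger 5.0.1 and the GRCm38 build are named in the submitters' processing notes. The handling of intronic reads and the calling of barcodes were not given in the sources used here. Gene coordinates came from GENCODE vM21, which matched 32158 of 32285 gene entries. Members, gene lists and tests were chosen with earlier results of these data known.

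Nuclei were gated on markers, without clustering; no doublet caller was run, and nuclei with genes of 2 types were instead left out in alternatives. Counts were summed per library and kind of nucleus and tested with edgeR 4.0.16 in R 4.3.3 (TMM factors, filterByExpr, glmQLFit and glmQLFTest, Benjamini-Hochberg threshold 0.05). The 15 gate genes stayed in the fit and were not counted. Lymphatic and blood endothelial sums of a library come from the same mouse, so the pairing follows from the design, and the fit with the library as replicate block was an alternative. DESeq2 1.42.0, RLE size factors, no filter, other gates and leaving out each library were further alternatives. On simulated counts of 1772 genes the edgeR fit recovered 27.2% of genes changed by 1 on the log2 scale, 90.0% at 2 and 100% at 3, and called 0.293% of unchanged genes. These rates hold for the simulated counts only, and the rates in the real sums were not tested.

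Genes named are the 12 largest rises and 12 largest falls past the threshold (at least 50 CPM and 10 UMIs in each library of the higher kind, gene models left out), all lymphatic identity genes, up to 5 of smallest p from each other list, and the 10 highest ratios to all other nuclei. Genes under the filter were named as list members. Syne1, and genes named to describe a count or to complete a list, were chosen after their values were seen. Folds against 0 used 3 UMIs over both libraries, and folds against 1 to 3 UMIs are ratios of pooled levels with exact intervals. These bounds and intervals cover counting error only, and leave out the spread between nuclei and between mice. Some genes that meet this rule are not reported here.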

Additional observations from a re-analysis of the deposited data

How the results depend on the processing

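The main fit called 108 genes higher (6.12%) and 150 lower (8.50%) of 1764 tested. DESeq2 called 43 (1.49%) and 61 (2.11%) of 2888 tested. Fits with no filter on low counts called 164 higher and 130 lower over 14179 genes. With at least 3 lymphatic genes per nucleus, 1350 genes were tested, of which 73 were higher (5.41%) and 97 lower (7.19%). With at least 2 endothelial support genes, 917 genes were tested, of which 96 were higher (10.5%) and 82 lower (8.94%). Both of these gates tested fewer genes than the main fit, whereas DESeq2 tested more genes and called fewer. Why the counts differ was not tested. Without nuclei holding 3 genes of another cell type, which tested 192 genes on 83 lymphatic and 20 blood endothelial nuclei, the counts were 44 and 43. With the library as a replicate block, which pairs the sums of a mouse, they were 121 and 154, of which 107 and 147 were shared; besides Hspg2, Magi1 and Sema6a no named gene changed its call under this block. RLE size factors, the gate without Lyve1, the removal of nuclei in both gates, 400 genes per nucleus, thinned sums and the removal of nuclei with 3 muscle genes kept both counts within 1.5 times. Leaving out 1 mouse leaves 1 sum per kind and gives no count.

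The share of nuclei was 1.05% and 0.420% with at least 3 lymphatic genes, 0.718% and 0.174% with support genes, and 0.776% and 0.297% without nuclei holding 3 genes of another type; at 400 genes per nucleus replicate 2 gave 1.59%. Under the alternatives that give a test, the named genes whose fold change turned sign were past no threshold in the main comparison. These were Nrp2 (0.28), Fbn1 (-0.14), Col1a1 (-0.25), Col1a2 (-0.14) and Col3a1 (-0.18) with support genes, Lrp1 (-0.094) and Col3a1 (-0.0050) with 3 lymphatic genes, and Maml2 (0.036), Rbpj (0.19) and Maml3 (0.20) with no filter. Under DESeq2, Rbpj (0.031) and Maml3 (0.036) also changed sign. In a single mouse, with no test, Piezo1 (2.22), Col1a2 (-0.065), Col3a1 (-0.078), Lrp1 (-0.26) and Nrp2 (0.012) turned sign without replicate 1, and Maml3 (0.12) and Rbpj (0.11) without replicate 2. Without nuclei holding 3 genes of another cell type, 32 of the 108 genes called higher could be tested and 1 of them turned sign, namely Slc8a1 (-0.14, edgeR adjusted p = 0.839). The cause was not tested. For the 24 genes of largest change, 284 of 310 recomputed values kept their call or stayed within their spread, 23 moved and 3 lost the threshold, all under DESeq2.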

Other observations

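Within the lymphatic group, nuclei with a Foxp2 UMI differed in level from the rest, a pattern noticed in the data and given without a test. There were 28 such nuclei of 146 in replicate 1 and 20 of 79 in replicate 2. Piezo2 stood at 572 and 284 CPM in nuclei with Foxp2, against 918 and 1078 CPM in nuclei without it. Pkhd1l1 stood at 308 and 511 CPM in nuclei with Foxp2, against 170 and 209 CPM without it, and Gpm6a at 1013 and 795 CPM against 612 and 499 CPM. The direction of these 3 genes was the same in both mice. Itga9 and Klhl4 went in opposite directions in the 2 mice. Nuclei with Foxp2 were deeper, with a median of 1199 and 1183 UMIs, against 1049 and 774 UMIs without it. Skeletal muscle nuclei also held Foxp2, in 20.8% and 11.5% of cases before thinning. After thinning to 500 UMIs, Foxp2 was found in 6.47% and 5.05% of skeletal muscle nuclei, against 13.3% and 18.5% of lymphatic nuclei.

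Of 937 genes with a mean of at least 200 CPM in lymphatic nuclei, 29 were at least 2-fold apart between the 2 mice, and 21 of these were higher in replicate 2. Ttn, Neb, Trdn and Dmd were among the 21, and Dmd stood at 325 CPM in replicate 1 and 1931 CPM in replicate 2. Cdk8 stood at 1654 CPM in lymphatic nuclei of replicate 1 and 4457 CPM in replicate 2, and at 1884 and 9463 CPM in all other nuclei of the same libraries. Foxp2 and Dpysl3 were also higher in replicate 2, with 176 and 472 CPM for Dpysl3, while C7 stood at 771 CPM in replicate 1 and 329 CPM in replicate 2.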
